A study of Homo sapiens with 12 samples.

Results

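The chromosome 19 miRNA cluster is a run of tandem miRNA genes best known from the placenta. Its members were taken by name: every human miRNA in the deposited table numbered miR-498 or from miR-512 to miR-527, with any letter, arm or asterisk. The rule found 49 of the 851 names, of which 44 lie on chromosome 19 by the RefSeq annotation of GRCh38.p14. The other 5, miR-513a-3p, miR-513a-5p, miR-513b, miR-513c and miR-514, lie on chromosome X, so they share the numbering and not the cluster, and they are described apart from it. Of all members, 47 had a mature sequence in RefSeq.

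Total RNA was measured on 12 one-colour Agilent arrays. Saos-2, a human osteosarcoma line, was studied beside Sa/CD99, the same line stably transfected with the cell surface protein CD99 and selected with neomycin. The cells were taken at day 0, before any time in osteogenic medium, and after 7 and 14 days in it, with 2 arrays for each cell type and day. Day 0 thus differs from the later days in medium as well as in time. The Sa/CD99 arrays of a day were clones 22 and 36, each a single clone, and the Saos-2 arrays were replicates 1 and 2.

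The cluster is found in primates, is imprinted and is transcribed from the paternal allele, chiefly in the trophoblast of the placenta, and it is silent in most adult tissues. A miRNA finds its targets mainly through its seed, a short stretch near the 5′ end, and many cluster members carry a seed close or equal to that of the embryonic miR-302 and miR-371 to miR-373 families. The genes of miR-371 to miR-373 lie just beyond the end of the cluster, and miRNAs of this locus are also made in pluripotent cells and in some tumours.

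The mature sequences on which the results turn are shown 5′ to 3′, from RefSeq, with the seed, bases 2 to 8, in capitals. The first set shares the seed AAGUGCU. Of its members in the table, miR-520b and miR-520e were detected and miR-520a-3p, miR-520c-3p and miR-520d-3p were not.
miR-520b: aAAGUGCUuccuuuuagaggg
miR-520e: aAAGUGCUuccuuuuugaggg
miR-520c-3p: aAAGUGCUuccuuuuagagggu
miR-520a-3p: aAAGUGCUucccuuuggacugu
miR-520d-3p: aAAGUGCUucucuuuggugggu
The 21 bases of miR-520b are all shared with miR-520c-3p, which has 1 more base at its 3′ end. miR-520e has the length of miR-520b and matches it at 20 of 21 bases, with the substitution A16U, counted from the 5′ end of miR-520b. The other detected members of the cluster and its neighbour miR-371-5p each had a seed that no other member or listed neighbour carried.
miR-516a-5p: uUCUCGAGgaaagaagcacuuuc
miR-526b: cUCUUGAGggaagcacuuucugu
miR-371-5p: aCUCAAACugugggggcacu
The detected members of chromosome X are shown because the only difference called between the cell types in the main fit fell on one of them.
miR-513a-5p: uUCACAGGgaggugucau
miR-513b: uUCACAAGgaggugucauuuau
miR-513a-3p: uAAAUUUCaccuuucugagaagg

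Where a member was detected depends on which of 2 deposited records is followed, because they give the arrays to different samples. The authors deposited a table of normalized log2 values with a column for each sample, and scanner output filed under the same samples. For 0 of the 12 samples did the column match the scanner output filed under it. Each column matched another array in its detected and undetected miRNAs, at 847 of 847 shared names, and the next best array at no more than 826. Which record is right was not tested. The groups used here are those of the table's column titles, and results under the filed samples stand beside them where they differ.

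Most of the cluster and its namesakes went undetected in these cells: 7 of the 49 members (14.3%) stood above the column minimum, the value given to undetected miRNAs, on at least 1 array. On chromosome 19 the detected members were 4 of 44 (9.09%), namely miR-520b, miR-520e, miR-516a-5p and miR-526b. On chromosome X they were 3 of 5, namely miR-513a-5p, miR-513b and miR-513a-3p. Over all 851 names 262 (30.8%) were detected on at least 1 array, and 100 were detected on all 12, among them 0 members.

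By the table's labels, detection followed the day. miR-520b, miR-520e and miR-513a-5p were each detected on the same 8 arrays, all those of days 7 and 14 in both cell types, and on none of day 0. miR-516a-5p was detected on both day 14 arrays of each cell type and on Saos-2 replicate 2 of day 7. miR-513b was detected on both day 14 arrays of each cell type, on Saos-2 replicate 2 of day 7 and on Saos-2 replicate 2 of day 0. miR-513a-3p was seen in Sa/CD99 at day 14, in both clones, and nowhere else, and miR-526b in clone 36 of that group alone.

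Counted per array, the Sa/CD99 arrays had 0 and 0 members at day 0, 3 and 3 at day 7, and 6 and 7 at day 14. The Saos-2 arrays had 0 and 1 at day 0, 3 and 5 at day 7, and 5 and 5 at day 14. Every array of days 7 and 14 had more members than any array of day 0, while the cell types overlapped. The mean was 4.62 ± 1.51 (SD, n = 8) at days 7 and 14 against 0.25 ± 0.50 (SD, n = 4) at day 0, a difference of 4.38 members per array with an exact two-sided permutation p of 0.00202, the smallest that this design can give. Between cell types the means were equal, 3.17 ± 2.93 (SD, n = 6) in Sa/CD99 and 3.17 ± 2.23 (SD, n = 6) in Saos-2, with an exact two-sided permutation p of 1. Arrays of 1 clone at different days are not independent, which these permutations do not take into account. Counting only the members on chromosome 19, the day difference was 2.75 members per array, again with an exact permutation p of 0.00202.

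**Figure D1:**
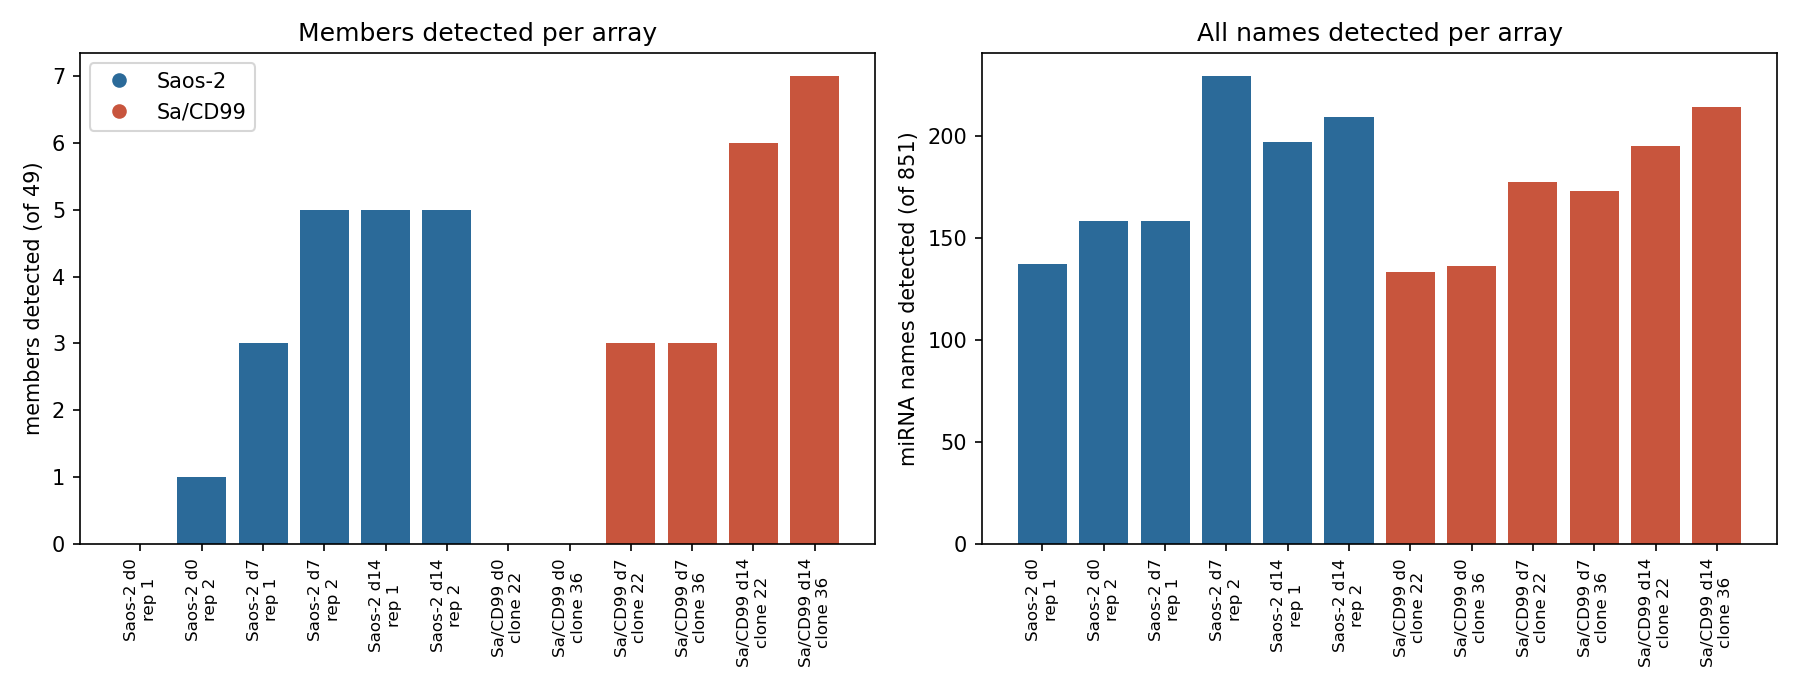
Left, members detected on each array, out of 49; right, all miRNA names detected on the same array, out of 851, with bars coloured by cell type under the table's labels. The 4 day 0 arrays have 0 or 1 member and from 133 to 158 names, and the other 8 have from 3 to 7 members and from 158 to 229 names.

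The whole array moved the same way, so this count is not a property of the members alone. At day 0 from 133 to 158 of all names were detected, at day 7 from 158 to 229 and at day 14 from 195 to 214. The pattern of miR-520b, present on the 8 later arrays and absent at day 0, was shared by 27 of 851 names, of which 3 were members. The reverse pattern was found for 1 name, miR-92b, singled out after its values were seen. The brightest name of the 8 later arrays, miR-923, since withdrawn from miRBase as a fragment of ribosomal RNA and below miR-15b on the day 0 arrays, had a total gene signal of 241 to 620 at day 0, of 15662 to 33993 at day 7 and of 22415 to 38150 at day 14. Without it, the summed gene signal was 8178 to 11131 at day 0, 9570 to 22560 at day 7 and 14840 to 25590 at day 14. The part of array signal in the detection of members was not tested.

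Under the filed samples, detection of the same members followed the cell type in place of the day. By that record each of the 2 slides held a single cell type, with 6 arrays apiece, so that a cell type difference there cannot be told apart from one between slides. There miR-520b, miR-520e and miR-513a-5p were detected on 6 of 6 Saos-2 arrays and on 2 of 6 Sa/CD99 arrays, 1 of day 0 and 1 of day 7. miR-516a-5p was detected on 4 Saos-2 arrays and 1 Sa/CD99 array, miR-513b on 4 and 2, miR-513a-3p on 2 and 0, and miR-526b on 1 and 0. The number of members per array was then 1.5 ± 2.07 (SD, n = 6) in Sa/CD99 and 4.83 ± 1.60 (SD, n = 6) in Saos-2, a difference of -3.33 with an exact two-sided permutation p of 0.0281. Of all 851 names, the arrays filed as Sa/CD99 had 133, 136, 137, 158, 158 and 229 detected. Those filed as Saos-2 had 173, 177, 195, 197, 209 and 214, so the count of members is again not a property of the members alone. Days 7 and 14 against day 0 gave -0.50 members per array with an exact permutation p of 0.824. All 4 arrays that the table names day 0 were filed as Sa/CD99, 1 at day 0, 1 at day 7 and 2 at day 14. The total gene signal of miR-923 was 15662 and 317 on the arrays filed as clones 22 and 36 at day 0. It was 620 and 33993 on those filed at day 7, and 417 and 241 on those filed at day 14. On the arrays filed as Saos-2 it was 22415 to 38150.

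**Figure D2:**
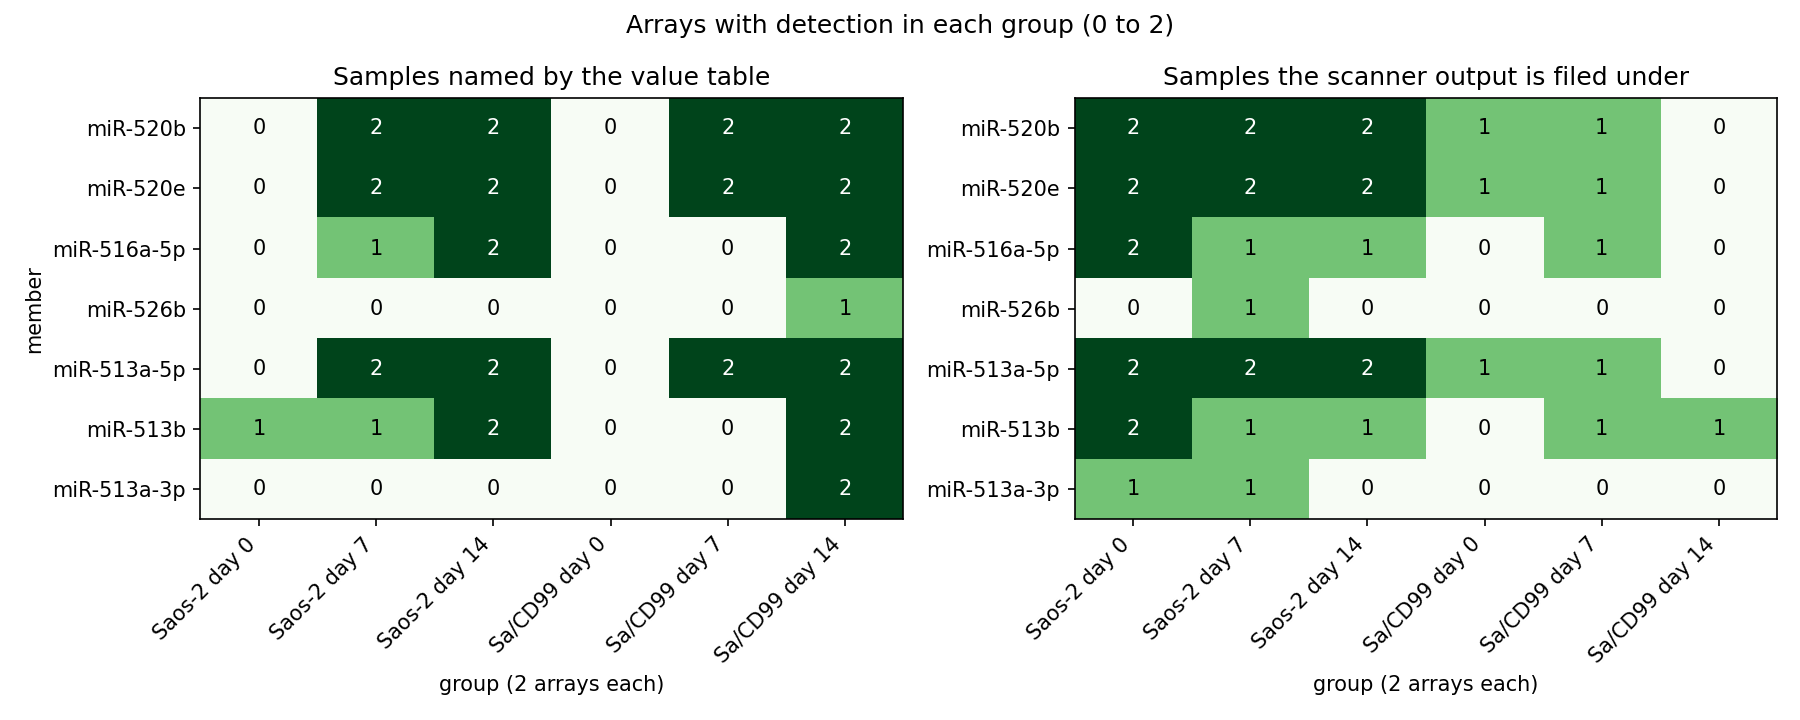
Number of arrays, from 0 to 2, on which each detected member (vertical) was detected in each group (horizontal), with the samples named by the value table on the left and those under which the scanner output was filed on the right. On the left both day 0 groups hold 0 except for miR-513b in Saos-2, and on the right miR-520b, miR-520e and miR-513a-5p are on both arrays of every Saos-2 group and on 0 of Sa/CD99 at day 14.

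Undetected members were found under every number of the cluster. Detection was absent on all 12 arrays for the only name of miR-498 and for all names numbered miR-512 (2 names), miR-515 (2), miR-517 (4), miR-518 (10), miR-519 (5) and miR-525 (2). The single names of miR-521, miR-522, miR-523 and miR-524 were likewise undetected, as was miR-514 of chromosome X. Among the numbers with a detected member, 7 of 9 names of miR-520, 2 of 3 of miR-516, 1 of 2 of miR-526 and 1 of 4 of miR-513 were undetected. In all, 42 members stood at the column minimum on every array, 40 of chromosome 19 and 2 of chromosome X.

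Along the chromosome the detected members do not lie together. The mature members placed on chromosome 19 span chr19:53666692-53761210 (GRCh38.p14), 94.5 kb with 54 loci of 42 names. The detected members lie on the plus strand. In order from the first mature member, miR-520e lies at chr19:53675764-53675784, 9.07 kb from it, miR-526b at chr19:53694406-53694428, 27.7 kb from it, and miR-520b at chr19:53701267-53701287, 34.6 kb from it. The sequence of miR-516a-5p occurs at 2 loci near the far end, chr19:53756756-53756778 and chr19:53761148-53761170, which an array probe cannot tell apart. Undetected members lie between each pair of neighbours in this order.

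**Figure D3:**
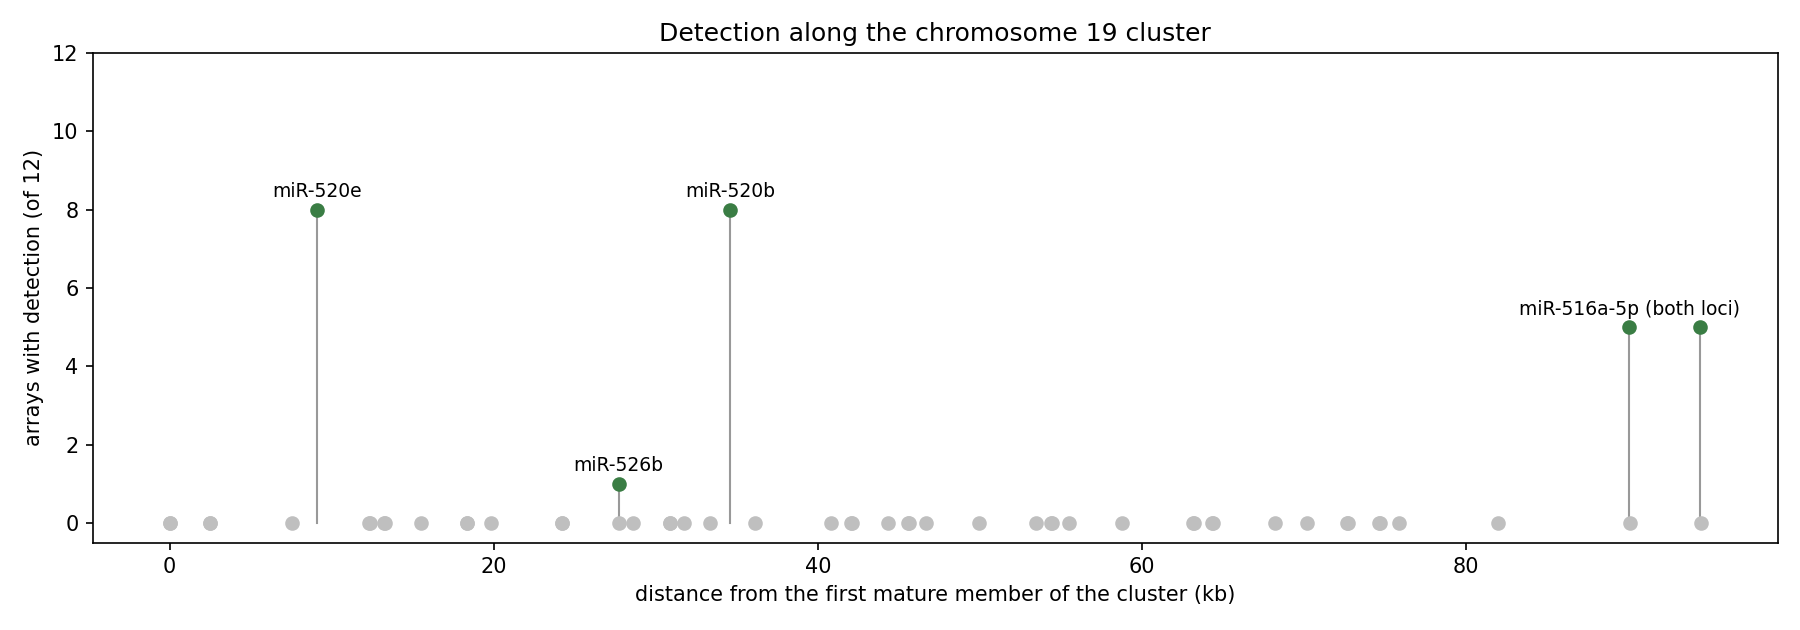
Number of the 12 arrays on which each mature member of chromosome 19 was detected, against its distance in kb from the first mature member of the cluster; grey points are undetected loci. miR-520e and miR-520b reach 8 arrays, miR-516a-5p, drawn at both of its loci, 5 and miR-526b 1.

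miR-520b, a member with the embryonic seed, was the member with the highest scanner signal. Its log2 value was 3.70 in clone 22 and 3.95 in clone 36 of Sa/CD99 at day 7, and 4.52 and 4.24 at day 14. In Saos-2 it was 3.65 and 2.98 in replicates 1 and 2 at day 7, and 4.00 and 2.98 at day 14. On the 4 day 0 arrays it was undetected, and the lowest detected values there were 2.39 and 2.0 in Sa/CD99 and 2.0 and 0.75 in Saos-2. Every value of days 7 and 14 thus lay above the lowest detected value of every day 0 array, and at each of the later days both clones lay above the higher Saos-2 replicate.

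Against day 0 the rise of miR-520b passed limma's test, with p-values adjusted by Benjamini-Hochberg and a threshold of 0.05, in both cell types and at both later days. Undetected at day 0, miR-520b entered the test only through the groups of days 7 and 14, so these calls describe where it was detected. Since day 0 was undetected, the fold is a lower bound, taken against the lowest detected value of each day 0 array: at least 3.84-fold at day 7 and 4.32-fold at day 14 in Saos-2, and at least 3.09-fold and 4.54-fold in Sa/CD99. The adjusted p was 4.96e-06 and 4.05e-06 in Saos-2 and 2.80e-06 and 1.63e-06 in Sa/CD99, each with the day 0 values set at the column minimum, about -3, which makes the fitted differences larger than any bound. From day 7 to day 14 the log2 difference of miR-520b was 0.17 in Saos-2 (adjusted p = 0.984) and 0.55 in Sa/CD99 (adjusted p = 0.357), neither of them called. Under the filed samples 0 of 213 miRNAs passed any test of time by limma. In bulk RNA, fewer cells that make a miRNA and less of it in each cell cannot be told apart.

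miR-520e, which differs from miR-520b by the single substitution, was present on the same arrays. Its log2 value was 3.05 and 2.98 in clones 22 and 36 at day 7, and 3.40 and 3.27 at day 14. In Saos-2 it was 2.91 and 0.94 in replicates 1 and 2 at day 7, and 3.05 and 1.05 at day 14. The clones were close to each other, while on both days the second Saos-2 replicate lay far below the first. The scanner's total gene signal, not scaled between arrays, did not show that gap: it was 5.70 and 10.15 in replicates 1 and 2 at day 7, and 11.73 and 11.55 at day 14. Summed over all names, that signal was 25232 and 56553 on these arrays at day 7, and 39910 and 46314 at day 14. Scanner intensities processed anew put replicate 2 below replicate 1, at log2 values of 1.97 and 1.66 in replicates 1 and 2 at day 7, and 2.54 and 1.83 at day 14. The rise from day 0 passed the test in both cell types, by at least 1.46-fold at day 7 (adjusted p = 0.00114 from limma) and 1.60-fold at day 14 (adjusted p = 0.000886) in Saos-2, and by at least 1.76-fold (adjusted p = 0.000367) and 2.19-fold (adjusted p = 0.0002) in Sa/CD99. The bounds in Saos-2 rest on replicate 1, which alone gives 2.89-fold and 3.19-fold, while replicate 2 alone, at 0.74 and 0.80 of the day 0 limit, gives none. With undetected values set to the lowest detected value of their column in place of the column minimum, none of these 4 differences of miR-520e passed, while all 4 of miR-520b did. Like miR-520b, miR-520e was undetected at day 0 and entered the test only through the later groups. From day 7 to day 14 the log2 difference was 0.13 in Saos-2 (adjusted p = 0.984) and 0.31 in Sa/CD99 (adjusted p = 0.781).

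**Figure D4:**
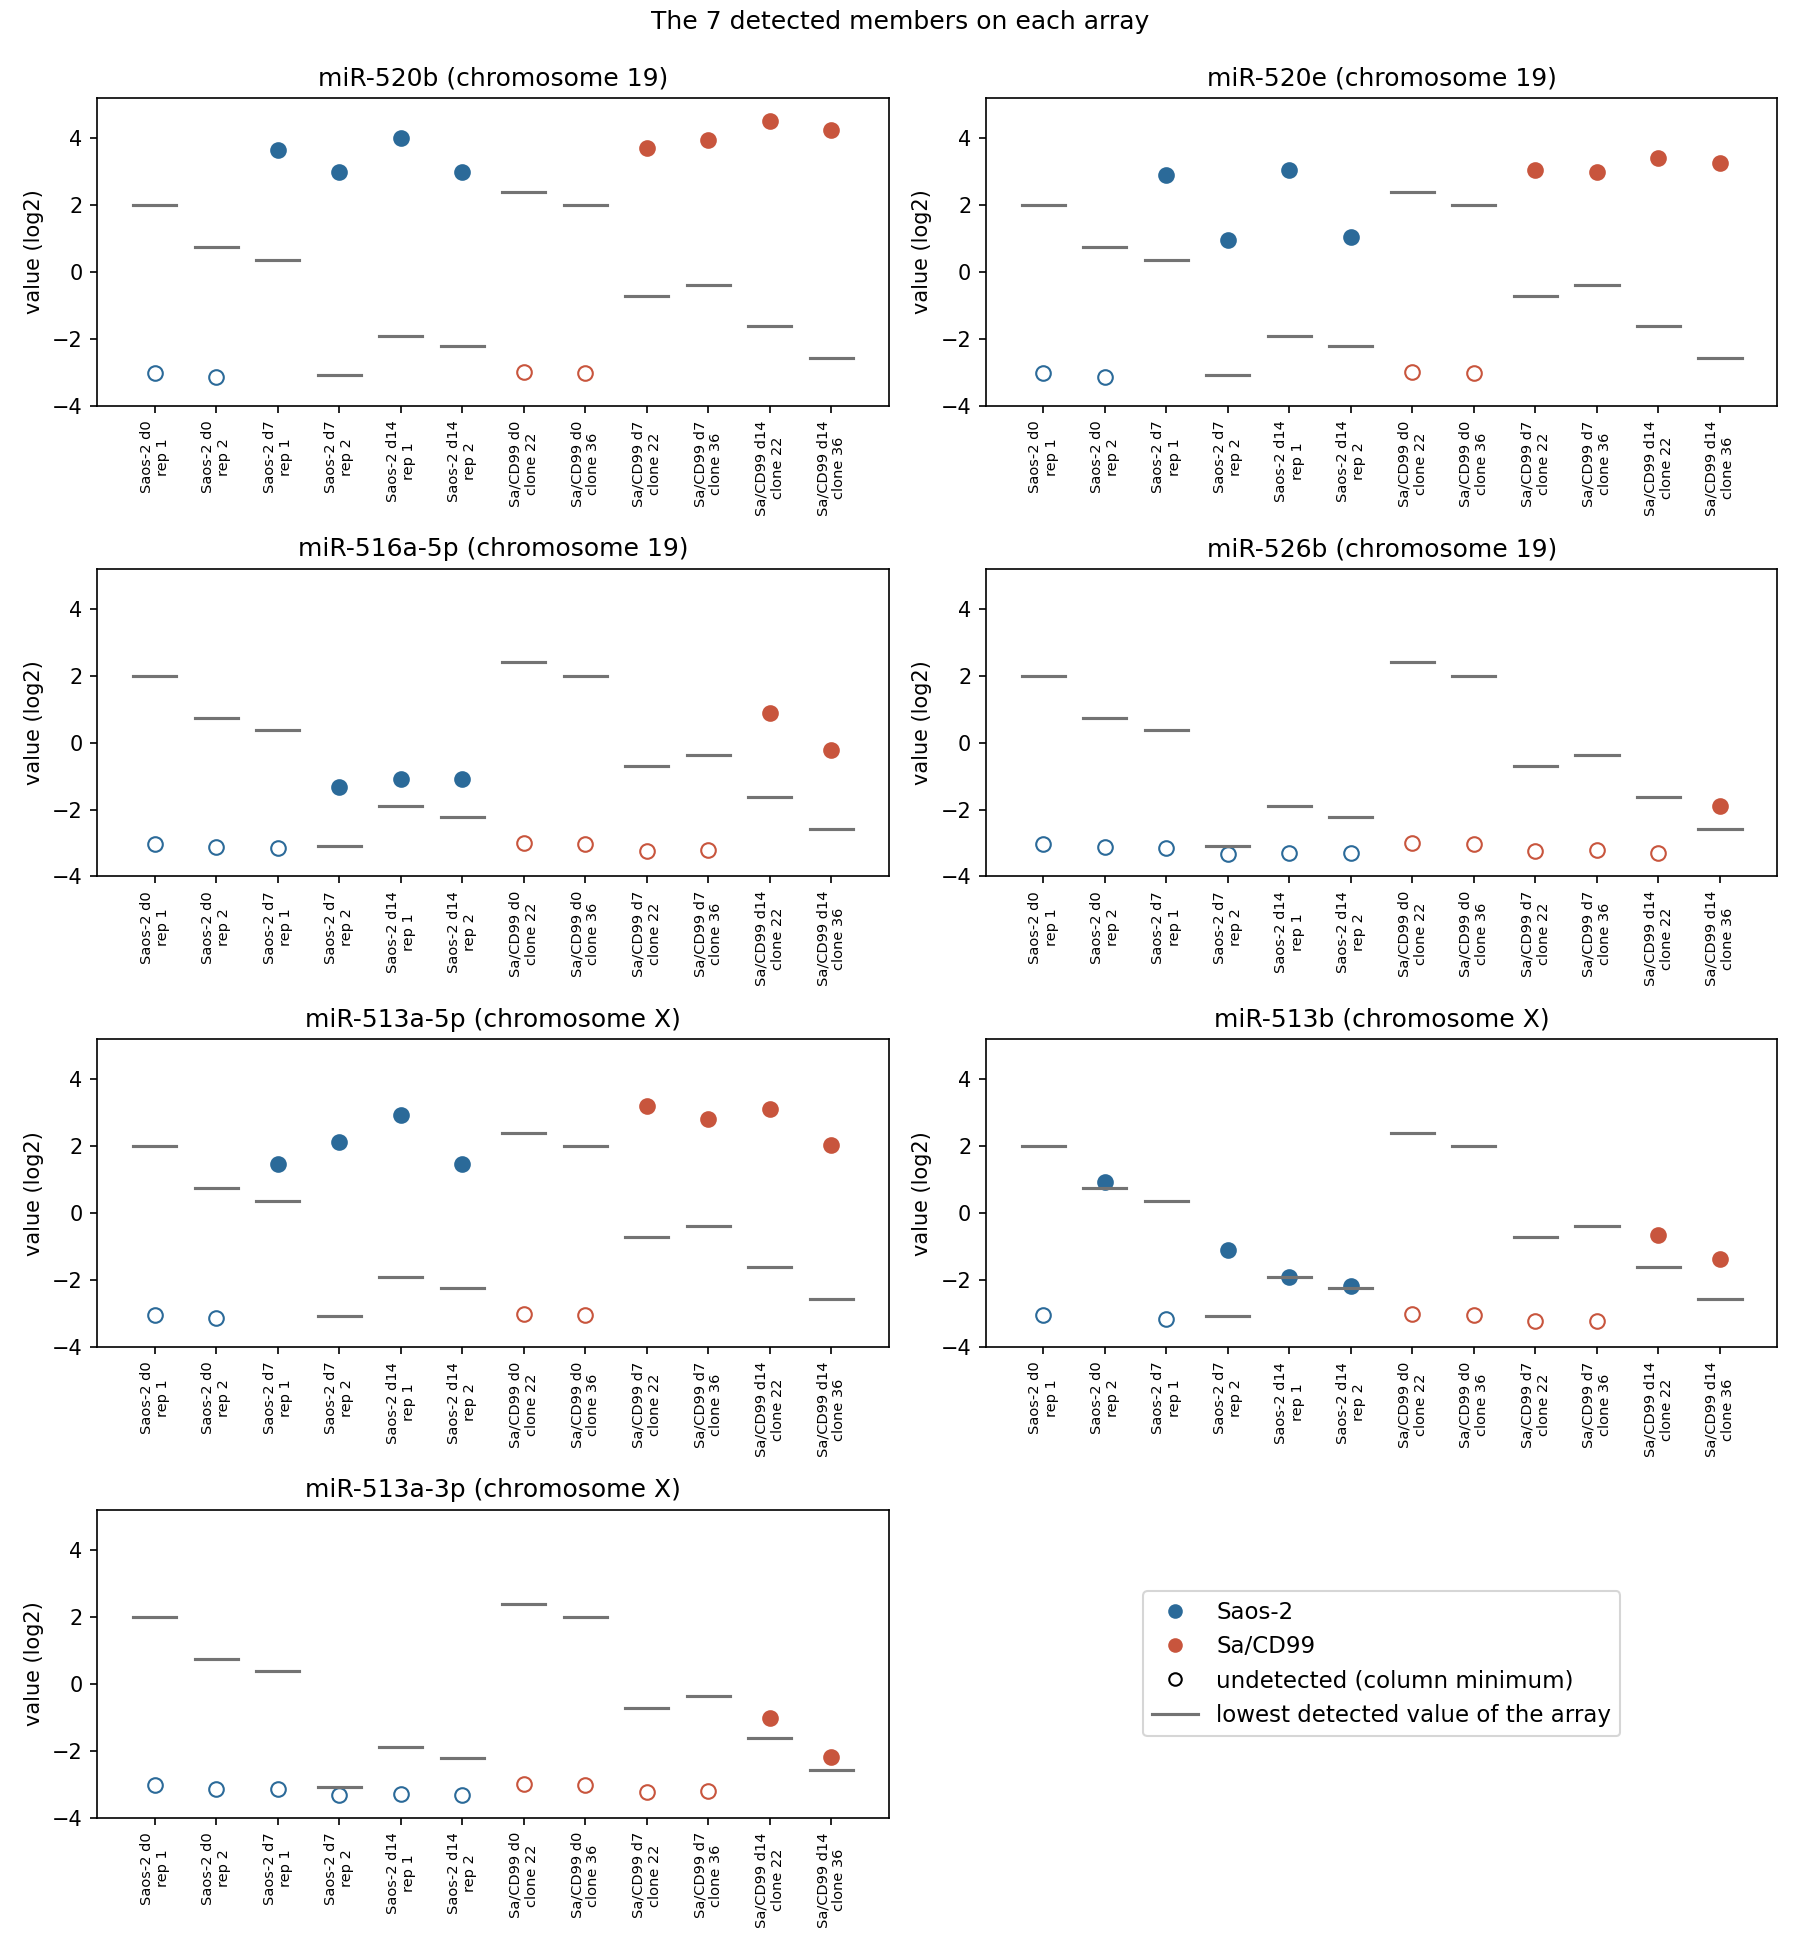
Deposited log2 value of each detected member on each of the 12 arrays under the table's labels, with open points for undetected values at the column minimum and grey lines for the lowest detected value of the array. miR-520b, miR-520e and miR-513a-5p are open on the 4 day 0 arrays and filled on the other 8, and the grey lines lie highest, between 0.75 and 2.39, at day 0.

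miR-516a-5p comes from the 5′ arm of its hairpins and carries another seed, whereas miR-520b and miR-520e come from the 3′ arm. It was 0.88 in clone 22 and -0.21 in clone 36 at day 14, and -1.10 in both Saos-2 replicates of that day, on the log2 scale. At day 7 it was -1.33 in Saos-2 replicate 2 and undetected on the other 3 arrays. Both clones lay above both Saos-2 replicates at day 14. miR-516a-5p entered the test only through the day 14 groups. Between days 7 and 14 in Sa/CD99 it rose by at least 1.84-fold in the mean of the clones (log2 difference 3.55, adjusted p = 0.00982 from limma). Taken alone, clone 22 of day 14 gives 2.67-fold and clone 36 gives 1.26-fold. The same step in Saos-2 gave 1.15 (adjusted p = 0.549), and limma's interaction of cell type and day did not pass for it (adjusted p = 0.469). Against day 0, limma called it at day 14 in Saos-2 (adjusted p = 0.0248) and in Sa/CD99 (adjusted p = 0.00172), but no fold can be given, since its day 14 level lies below the lowest value detected at day 0 on average. With undetected values set to the lowest detected value, these differences turned to -2.47 and -1.86. Without clone 22 of day 14 the step from day 7 to day 14 was not called, and without clone 22 of day 7 it was not called either, while the difference stayed between 3.01 and 4.10 without any single array. With undetected values at the lowest detected value it was 0.88 and not called (adjusted p = 0.325).

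miR-526b was detected on 1 array, clone 36 of Sa/CD99 at day 14, at a log2 value of -1.90, close to the lowest detected value of that array, -2.57. It was not tested, since no group had it on both arrays.

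The members of chromosome X held both patterns. miR-513a-5p was 3.20 and 2.81 in clones 22 and 36 at day 7 and 3.11 and 2.05 at day 14. In Saos-2 it was 1.47 and 2.12 in replicates 1 and 2 at day 7 and 2.94 and 1.47 at day 14. The cell types were apart at day 7 and overlapped at day 14. Its rise from day 0 passed the test, by at least 1.34-fold at day 7 (adjusted p = 0.00023 from limma) and 1.78-fold at day 14 (adjusted p = 0.000123) in Saos-2, and by at least 1.75-fold (adjusted p = 5.55e-05) and 1.30-fold (adjusted p = 6.89e-05) in Sa/CD99. Taken alone, replicate 1 of day 7 and replicate 2 of day 14 in Saos-2 give 1.07-fold, and clone 36 of day 14, at 0.90 of the limit, gives none. With undetected values at the lowest detected value, none of the 4 passed. miR-513a-5p too was undetected at day 0 and entered the test only through the later groups.

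miR-513b was -0.65 and -1.36 in clones 22 and 36 at day 14 and -1.90 and -2.18 in the Saos-2 replicates of that day. It was also detected in Saos-2 replicate 2 at day 0, at 0.94, and at day 7, at -1.09. The clones lay above both Saos-2 replicates at day 14, by a log2 difference of 1.04 with a standard error of 1.18 (adjusted p = 0.666 from limma). miR-513a-3p was -1.02 and -2.18 in clones 22 and 36 at day 14 and undetected elsewhere. It was called from day 7 to day 14 (adjusted p = 0.0284) and from day 0 to day 14 (adjusted p = 0.0128) in Sa/CD99, with no fold, since its level lies below the lowest value detected at the earlier day, and with undetected values set to that lowest value the differences turned to -1.06 and -3.80.

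Counted over the comparisons of time, 6 members were tested, 3 of them on chromosome 19, each because both arrays of some group held it, so that a member seen in 1 group only had to differ. All of them except miR-513b were undetected on every day 0 array and entered through later groups. Their calls against day 0 thus describe where they were detected. From day 0 to day 7 in Saos-2, 3 members were called, beside 36.5% of the 219 miRNAs tested, and from day 0 to day 14, 4 members beside 55.7%. In Sa/CD99, 3 members were called from day 0 to day 7 beside 32% of all, 5 from day 0 to day 14 beside 74.4%, and 2 from day 7 to day 14 beside 19.6%. From day 7 to day 14 in Saos-2 limma called 0 members, beside 0% of all, with 0 members and 19 miRNAs in all at an unadjusted p under 0.05. Every called member was higher at the later day, where undetected values stand at the column minimum.

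Other scalings of the values changed the balance of calls and were no test of the members' direction, since undetected day 0 values stay at the bottom of each column. Centring the columns on the 75th percentile of the miRNAs detected on all arrays moved the median log2 difference of all miRNAs by 0.43 from day 0 to day 7 and 0.52 from day 0 to day 14 in Saos-2, and by 0.42 and 0.75 in Sa/CD99. The scanner's total gene signal, scaled and given the same labels, moved it by 0.62 and 0.62 in Saos-2 and by -0.062 and 0.99 in Sa/CD99. From day 0 to day 14 in Sa/CD99, 163 of 219 miRNAs were called in the main fit, 49.7% of them higher at day 14, against 64.2% of 134 after centring and 76.1% of 117 on total gene signal. The slides limit some of these comparisons: by the table's labels all day 0 arrays and Saos-2 at day 7 lay on 1 slide, and Sa/CD99 at day 7 and all day 14 arrays on the other. The slide cannot be told apart from the day between days 0 and 14, from day 0 to day 7 in Sa/CD99 or from day 7 to day 14 in Saos-2, nor from the cell type at day 7, whereas Saos-2 from day 0 to day 7, Sa/CD99 from day 7 to day 14, and the cell types at days 0 and 14 were compared within a slide.

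The CD99-transfected clones were compared with the parental line at each day. They were also selected with neomycin, and the samples held no transfected line without CD99. A difference due to CD99 thus cannot be told apart from one due to selection or to the single clones. At day 0 limma called 0 members by the thresholds of the study's methods, an unadjusted p up to 0.01 with a limit on the fold, beside 2.74% of all 219 miRNAs, and 0 members had an unadjusted p under 0.05. At day 7 the levels of miR-520b, miR-520e and miR-513a-5p did not overlap between the cell types, and these 3 were higher in the clones. miR-513b and miR-516a-5p went the other way, detected on Saos-2 replicate 2 alone, with log2 differences of -1.10 and -0.97 taken against the column minimum. The share of all 219 miRNAs whose cell types lay apart at this day is not given here, so these separations describe the members only. limma called 0 members at day 7, beside 3.2% of all, with 0 at an unadjusted p under 0.05. By an adjusted p up to 0.05 the count was also 0, beside 1.37% of all. The log2 difference was 0.51 for miR-520b (standard error 0.42, adjusted p = 0.714), 1.09 for miR-520e (standard error 0.76, adjusted p = 0.708) and 1.21 for miR-513a-5p (standard error 0.56, adjusted p = 0.656). With 1 array left out at a time these ranged from 0.18 to 0.85, from 0.11 to 2.07 and from 0.88 to 1.54.

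At day 14, the levels of miR-520b, miR-520e, miR-516a-5p and miR-513b, each detected on all 4 arrays, were higher in both clones than in both Saos-2 replicates. limma called 1 member, which was none of these, beside 9.13% of all 219. At an unadjusted p under 0.05 from limma there were 2 members, the called one and miR-516a-5p, beside 40 of all 219. The share of all miRNAs whose cell types lay apart at this day is not given here, so these separations describe the members only. miR-520b had a mean log2 value of 4.38 ± 0.20 (SD, n = 2) in Sa/CD99 and 3.49 ± 0.72 (SD, n = 2) in Saos-2, a difference of 0.89 (adjusted p = 0.306 from limma). miR-520e stood at 3.33 ± 0.09 and 2.05 ± 1.41, a difference of 1.28 (adjusted p = 0.377 from limma). For miR-516a-5p the means were 0.33 ± 0.77 and -1.10, where the Saos-2 arrays tie, and the difference was 1.43 (adjusted p = 0.246 from limma). The member that overlapped was miR-513a-5p, at 2.58 ± 0.75 and 2.21 ± 1.04, a difference of 0.37 (adjusted p = 0.763 from limma). Leaving out 1 array at a time moved the difference from 0.39 to 1.40 for miR-520b, from 0.28 to 2.28 for miR-520e and from 0.89 to 1.97 for miR-516a-5p.

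The called member was miR-513a-3p of chromosome X, detected in both clones and in neither Saos-2 replicate. It entered the test only because both Sa/CD99 arrays of day 14 held it and no other array did, so it had to differ there, and its call is a description of where it was detected. Clone 36, at -2.18, lay below the lowest detected value of Saos-2 replicate 1, -1.90, so that only the column minimum sets this clone above that array. Its mean was -1.60 ± 0.82 (SD, n = 2) in Sa/CD99, at least 1.38-fold above the mean of the lowest detected values of Saos-2, with a log2 difference of 1.70 and an adjusted p of 0.0706 from limma, so it was called by the unadjusted threshold and did not pass the adjusted one, which 0 members and 2.74% of all miRNAs passed. The call was lost without clone 22 of day 14, where the difference was 1.12, without either Saos-2 replicate of that day, and with undetected values at the lowest detected value, where it was 0.46. The adjusted threshold was passed without clone 36 of day 14, at 2.28 (adjusted p = 0.0173), without either Saos-2 replicate of day 7 (adjusted p = 0.0409) and on total gene signal, at 4.75 (adjusted p = 0.000393). Scanner intensities processed anew under the same labels called miR-516a-5p in its place, at a log2 difference of 0.97 (adjusted p = 0.134). On chromosome 19 the count was 0.

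Over all days together limma called 0 members, beside 2.74% of all, with 1 member at an unadjusted p under 0.05. The interaction of cell type and day also gave 0 members, beside 1.83% of all, with 1 member, again miR-513a-3p, at an unadjusted p under 0.05 (adjusted p = 0.297). Under the filed samples and newly processed scanner intensities, 3 members were called over all days, all lower in Sa/CD99, namely miR-520b by a log2 difference of -2.18, miR-520e by -1.56 and miR-513a-5p by -1.59, each with an adjusted p of 0.0239 from limma, beside 92 of 213 miRNAs. The direction of the cell type difference of these members thus turned with the record of the samples, though by the filed one it cannot be told apart from the slide.

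The spots behind these values were weak. Each member had 16 spots per array, shared among 2 to 4 probes. The highest total gene signal on any array was 32.6 for miR-520b, 20.1 for miR-520e, 15.8 for miR-513a-5p, 6.78 for miR-516a-5p, 5.13 for miR-513b, 3.45 for miR-513a-3p and 2.87 for miR-526b. All 16 spots of miR-520b, miR-520e and miR-513a-5p were well above background on their best array, against at most 62.5% for miR-516a-5p, 31.2% for miR-513b, 25% for miR-513a-3p and 6.25% for miR-526b. When detection was asked of at least 50% of the spots, 4 members were detected, and the day difference was 2.88 members per array (exact two-sided permutation p = 0.00202).

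Spot by spot, the probes of miR-520b moved with its summary. Its median spot signal after background subtraction was 0.80 to 1.80 on the day 0 arrays and 8.55 to 31.1 on the others. That of miR-520e was 0.62 to 1.75 at day 0 and 5.72 to 19.1 later. miR-520c-3p, whose sequence holds the whole of miR-520b and 1 more base at the 3′ end, stayed between 0.62 and 2.12 on all 12 arrays. It was 1 of the 3 undetected members with the highest spot signal, beside miR-513c, with up to 3.81, and miR-498, with up to 2.99. Before background subtraction, the medians of the 2 probes of miR-520c-3p were 31 to 35.2 and 31 to 34.5 at day 0, and 28.5 to 36 and 29.5 to 36.5 later. Those of the 2 probes of miR-520b were 30.8 to 35.2 and 32.5 to 34 at day 0, and 36.5 to 63 and 37 to 65 later. The labelling joins a dye to the 3′ end of each RNA, and whether the added base bears on these signals was not tested.

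**Figure D5:**
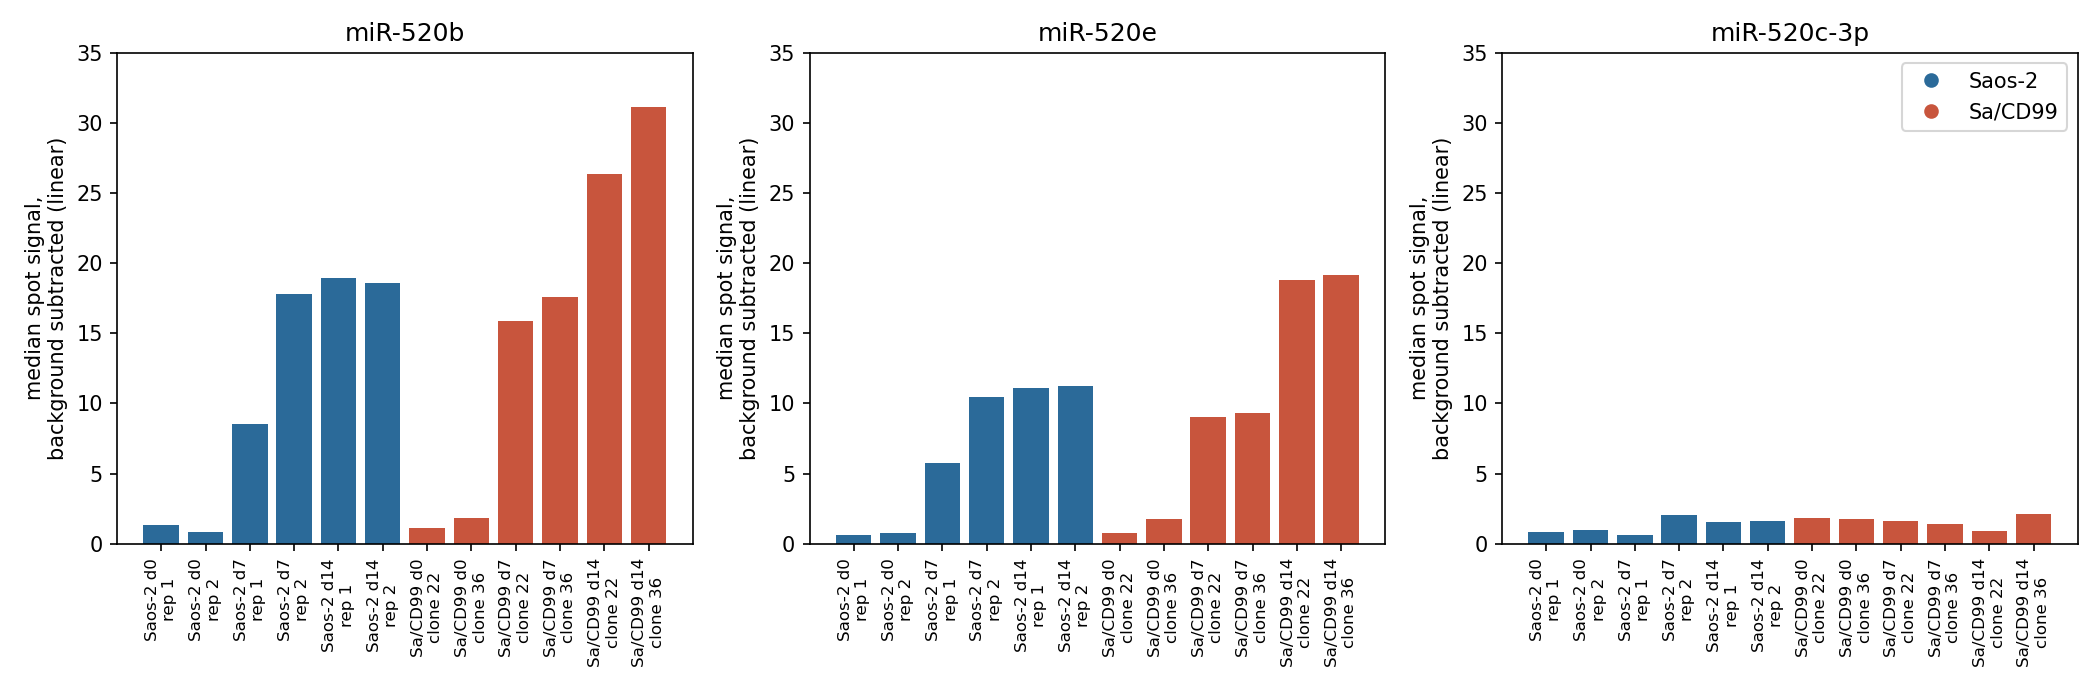
Median background-subtracted spot signal on a linear scale for miR-520b, miR-520e and miR-520c-3p on each array, coloured by cell type under the table's labels. miR-520b lies between 8.55 and 31.1 and miR-520e between 5.72 and 19.1 at days 7 and 14, while miR-520c-3p stays at or below 2.12 on all 12 arrays.

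The detected miR-520 members, alike at 20 of 21 bases, also share their 3′ end. miR-520b and miR-520e end in GAGGG, as did 5 of 2370 mature human miRNAs (0.211%), and no other member did. The ending AGGGU of miR-520c-3p was found in 3 members, miR-516a-3p, miR-520c-3p and miR-523, all undetected, and in 7 of 2370 mature miRNAs (0.295%). These endings were picked after the values were seen. In GC content the 7 detected members, at 34.8% to 50% with a median of 42.9%, lay within the range of the 40 undetected ones with a sequence, 31.8% to 59.1% with a median of 46.5%.

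The seed did not separate detected from undetected members. AAGUGCU was carried by 11 of the members and listed names, the 5 members shown above with miR-372, miR-373 and miR-302a to miR-302d, and 2 of the 11 were detected. The stem cell cluster of miR-302a to miR-302d and miR-367 was undetected on all arrays, 0 of 5. The members miR-519d and miR-526b*, both undetected, carry AAAGUGC, the seed of the miR-17 family, of which 5 of the 6 listed names were in the table and all 5 were detected, 4 of them on all 12 arrays. Between cell types none of those was called. From day 0 to day 14 in Sa/CD99, 2 of the 5 were called as lower, beside 82 of all 219 miRNAs. The 2 were miR-106b with a log2 difference of -1.46 (adjusted p = 0.0159 from limma) and miR-93 with -1.18 (adjusted p = 0.0143 from limma). Neither was called after centring on the 75th percentile, where the differences were -0.71 (adjusted p = 0.169) and -0.43 (adjusted p = 0.275). On total gene signal neither was called, at -0.41 and -0.51. Both were called on scanner intensities processed anew under the table's labels, at -1.75 (adjusted p = 0.00955 from limma) and -1.65 (adjusted p = 0.000762 from limma).

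Of 7 other miRNAs listed from the same stretch of chromosome 19, 2 were detected. The set holds miR-1283 and miR-1323, whose loci fall within the span of the members, and 5 names of miR-371 to miR-373 from beyond its end. miR-371-5p, from the far side of the cluster at chr19:53787680-53787699, was detected on the same 8 arrays as miR-520b and miR-520e. It was 3.37 and 3.27 in clones 22 and 36 at day 7 and 3.95 and 4.15 at day 14, on the log2 scale. In Saos-2 it was 3.29 and 3.90 at day 7 and 3.59 and 3.20 at day 14. The cell types overlapped at day 7 and were apart at day 14, by a log2 difference of 0.66 that was not called (adjusted p = 0.320 from limma). Against its undetected day 0, set at the column minimum, limma called it at day 14 in Saos-2 (adjusted p = 1.08e-06), beside 55.7% of all 219 miRNAs. In Sa/CD99 it was also called (adjusted p = 5.78e-07), beside 74.4%. miR-371-5p entered the test only through the groups of days 7 and 14, so these calls describe where it was detected. The other detected neighbour, miR-373*, was seen on 1 array, clone 36 of Sa/CD99 at day 14, at -2.22, and miR-371-3p, miR-372, miR-373, miR-1283 and miR-1323 were undetected.

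Markers of other cells gave the setting of these values. Of 10 miRNAs of the mesenchymal and osteoblast lineage, 8 were detected, 6 of them on all 12 arrays, with miR-21 from 8.55 to 10.98 on the log2 scale and miR-143 and miR-218 undetected. Their summed total gene signal was 502 to 907 at day 0, 808 to 2507 at day 7 and 962 to 2263 at day 14. Of the 7 tested, none was called as higher at a later day than at day 0. miR-145 was called as lower from day 0 to day 7 (-1.84) and to day 14 (-1.71) in Saos-2 and to day 14 in Sa/CD99 (-2.13), miR-214 to day 14 in Saos-2 (-1.40) and miR-10b to day 14 in Sa/CD99 (-2.95), as log2 differences. Those of blood (0 of 5), epithelium (0 of 7), liver (0 of 1) and pluripotent cells (0 of 5) were undetected on every array. Of the muscle list, 1 of 4 was detected, miR-133b, on 3 arrays, and of the nervous system list 2 of 3, miR-9 on 1 array and miR-128 on 6, called as lower from day 0 to day 14 in Saos-2 (-5.02). Over all 219 miRNAs, limma called 33 as lower and 47 as higher from day 0 to day 7 in Saos-2. To day 14 it called 59 and 63 in Saos-2, and 82 and 81 in Sa/CD99. None of these marker calls was made after centring on the 75th percentile. There the log2 differences, in the order above, were -1.41, -1.19 and -1.37 for miR-145, -0.88 for miR-214, -2.20 for miR-10b and -4.51 for miR-128. The part of such changes in the members' values was not tested. No list of other placental markers was used here.

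With 2 arrays a group, their number limits the precision. The 2 Sa/CD99 arrays of a day were separate clones, while nothing in the records says that the Saos-2 replicates came from separate cultures. The p-values therefore rest on a spread pooled over the groups, which is between clones in Sa/CD99 and may be technical in Saos-2. Where a group was undetected, its arrays differ only in their column minimum, which makes the pooled spread smaller. For miR-513a-3p the SD was 0.82 in Sa/CD99 at day 14, and from 0.0087 to 0.12 in the groups where it was undetected. Between the 2 arrays of a group, the difference over shared detected names had an SD on the log2 scale of 0.38, 0.76 and 0.70 in Sa/CD99 at days 0, 7 and 14, and of 0.67, 1.24 and 1.24 in Saos-2.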

How the data were processed

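RNA of 12 samples was hybridised to Agilent human miRNA arrays, which read 15739 spots, 15024 of them not controls. The authors extracted the intensity of each spot and the detection flags with Feature Extraction (10.7.3.1 by the file headers). Those deposited intensities carry no normalization between arrays. A table of normalized log2 values was also deposited, in which undetected miRNAs tie at the column minimum, and how that minimum was set is not stated. The study's methods name an adaptation of RMA for its miRNA values. Each column had a Spearman correlation of 1.0 across names with the scanner output of the array it matched. In scanner intensities processed anew, undetected members did not tie at a minimum. How the deposited values were made was not tested. The log2 values under the table's own column titles were used for all results unless another record is named.

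The members and lists were chosen with earlier results of these data known. Every member detected on at least 1 array was named with its arrays. Members seen on both arrays of a group, with miR-516a-5p and miR-520e, which the study lists, were given with the value on each array. Undetected members were counted by number and named, with signals for the 3 highest. Neighbouring, stem cell and miR-17 family lists and marker lists stand beside them. Sequences and positions are from RefSeq on GRCh38.p14, matched by name for 47 of 49 members.

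limma 3.58.1 on R 4.3.3 fitted 6 groups to the 219 miRNAs that some group held on both arrays, with p-values adjusted over all 219 by Benjamini-Hochberg. Differences between cell types at a day were called at p of at most 0.01 and the fold limit of the study's methods, and all others at an adjusted p of at most 0.05. A bound divides the mean level of the detected group by that of the undetected group, where each array counts with its lowest detected value or the member's own, whichever is larger. Members per array were compared by exact permutation. The limma fit was tested on simulated data. Tables were read with Python 3.11.15, pandas 2.3.3 and numpy 2.4.6, and drawn with matplotlib 3.10.9. Alternatives changed the record of the samples, the intensity processing, the value and filter for undetected miRNAs, the scaling, the threshold, the members, the arrays in the fit and a replicate block.

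Clones 22 and 36 are the same clones at each day, whereas the records do not name what a Saos-2 number shares. Same-numbered arrays were checked for shared deviations from the group mean, and over 219 miRNAs these correlated at 0.034, 0.18 and 0.072 in Sa/CD99 between days 0 and 7, 0 and 14, and 7 and 14, and at 0.18, 0.18 and 0.20 in Saos-2. The study's gene expression arrays were not used here.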

Additional observations from a re-analysis of the deposited data

How the results depend on the processing

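The members placed on chromosome 19 only and the fits without the 4 arrays of day 0 were chosen after seeing the data. The cause of each change was not tested unless its construction is stated. Signal over background limits what the arrays can show: at most 62.5% of the spots of miR-516a-5p stood well above background. A lone array left in a group is assumed to vary like the other groups.

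The clone and replicate numbers as a replicate block, with an estimated correlation of 0.12, gave the same numbers of called members in every comparison, 1 at day 14 and from 0 to 5 elsewhere.

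The scanner arrays as filed, where each cell type lies on 1 slide, changed most counts: 1 member at day 0, 3 over all days, and 0 from day 0 to 7, day 0 to 14 and day 7 to 14 in Sa/CD99 and from day 0 to 7 and day 0 to 14 in Saos-2. Under filed samples the members detected per array differed by -3.33 between cell types and by -0.50 between days. As filed, the difference between cell types turned at day 7 for miR-513a-5p (-0.96), miR-520b (-2.04) and miR-520e (-1.56), and at day 14 for miR-513a-5p (-1.97), miR-513b (-0.51), miR-516a-5p (-0.54), miR-520b (-2.40) and miR-520e (-1.60). In Saos-2 the difference turned from day 0 to 7 for miR-513a-5p (-0.47) and miR-520e (-0.18), from day 7 to 14 for miR-516a-5p (-0.41), miR-520b (-0.58) and miR-520e (-0.61), and from day 0 to 14 for miR-513a-5p (-0.64), miR-516a-5p (-0.66), miR-520b (-0.56) and miR-520e (-0.79). In Sa/CD99 it turned from day 0 to 7 for miR-520e (-0.21), from day 7 to 14 for miR-516a-5p (-0.30), miR-520b (-0.93) and miR-520e (-0.66), and from day 0 to 14 for miR-513a-5p (-0.76), miR-516a-5p (-0.043), miR-520b (-0.87) and miR-520e (-0.86).

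With undetected values at the lowest detected value, 0 members were called at day 14 and 0 from day 7 to 14 in Sa/CD99. By construction, values below another array's lowest detected value then turn: miR-516a-5p from day 7 to 14 (-0.62) and day 0 to 14 (-2.47) in Saos-2 and day 0 to 14 in Sa/CD99 (-1.86), and miR-513a-3p from day 7 to 14 (-1.06) and day 0 to 14 (-3.80) in Sa/CD99. Counts from day 0 were then 4 at either later day in both cell types: miR-520b higher, and miR-513a-3p, miR-513b and miR-516a-5p lower by that construction. With no filter, 45 members were called from day 0 to 7 in each cell type, 46 and 47 from day 0 to 14 in Saos-2 and Sa/CD99, and 1 from day 7 to 14 in Sa/CD99; undetected members then differ by the columns' minimum alone. Asking for detection on all 12 arrays leaves no member to test and gave 0 in each of these and at day 14.

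At day 14 the count of 1 was 0 with only the 4 arrays of the day, without the 4 arrays of day 0, at an adjusted p and on chromosome 19 only. From day 7 to 14 in Sa/CD99 the count of 2 was 1 with newly processed scanner arrays under the table's labels, without the 4 arrays of day 0 and on chromosome 19 only, and from day 0 to 14 the count of 5 was 3 on chromosome 19 only. The scanner's total gene signal gave 1 member over all days, miR-513a-3p, and 1 for the interaction. Members detected at all were 4 on chromosome 19 and 4 with 50% of spots well above background.

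Leaving out each array in turn gave 0 to 1 called members at day 0 (1 without Saos-2 day 0 replicate 1), 0 to 1 at day 7 (1, miR-516a-5p, without Saos-2 day 7 replicate 1), 0 to 2 at day 14 (2 without either Saos-2 day 7 replicate, 0 without clone 22 or either Saos-2 replicate of day 14), 0 to 0 over all days and 0 to 1 for the interaction (1 without Saos-2 day 7 replicate 1). In Saos-2 the range was 3 to 4 from day 0 to 7, 0 to 1 from day 7 to 14 (1 without day 7 replicate 2) and 3 to 4 from day 0 to 14. In Sa/CD99 it was 3 to 3 from day 0 to 7, 0 to 2 from day 7 to 14 (0 without clone 22 of day 7 or of day 14, 1 without clone 36 of day 7 or either clone of day 0) and 4 to 6 from day 0 to 14. Members per array ranged from -0.77 to 0.63 between cell types and from 4.04 to 4.62 between days, and 6 to 7 were detected at all. Directions turned without single arrays for miR-513a-5p between cell types at day 14 (-0.36 to 1.11) and from day 7 to 14 in Sa/CD99 (-0.96 to 0.10), and for miR-513b between cell types at day 0 (-3.96 to 0.013). In Saos-2 they turned from day 7 to 14 for miR-520b (-0.34 to 0.68), miR-520e (-0.87 to 1.13), miR-513a-5p (-0.33 to 1.15) and miR-513b (-0.95 to 1.12), from day 0 to 7 for miR-513b (-3.07 to 0.91) and miR-516a-5p (-0.075 to 1.75), and from day 0 to 14 for miR-513b (-2.98 to 0.99). None of these differences was called in the main fit.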
